A study of Mus musculus with 12 samples.

Results

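The interferon response and antigen presentation genes described here are 35 mouse genes chosen by name, namely MHC class I and its light chain, the peptide loading complex, the immunoproteasome, STAT and IRF factors and interferon-stimulated genes. All 35 were among the 45706 genes in the expression table, and all 35 were among the 18909 genes that passed a filter on low values and were tested. RNA-seq was performed on BN1-Tie2-EGFP cells, a murine hepatoblastoma (HB) line grown from 1 tumor of an FVB/N mouse. In that tumor, Sleeping Beauty vectors had delivered a β-catenin mutant lacking 90 amino acids and the L30P mutant of NRF2, and Crispr/Cas9 had targeted exon 2 of Cdkn2a, and the labels give Cdkn2a KO as the genotype of every group. The methods describe more than 1 Cdkn2a mutation in each tumor, and whether the groups hold them in the same shares was not tested. Cdkn2a itself was at 196 to 327 TPM in UN, 66.4 to 78.7 in UH, 10.4 to 16.5 in SN and 7.37 to 9.32 in SH cells, and TPM over a whole gene does not show whether its exon 2 is intact. The line also carries EGFP under the Tie2 promoter as a pool of G418-resistant clones. There were 3 libraries in each of 4 groups. Unsorted normoxic (UN) cells were kept in 21% oxygen and unsorted hypoxic (UH) cells in 1% oxygen for 2 days. Sorted normoxic (SN) cells had been exposed to hypoxia, sorted for the highest EGFP signal and grown on in normoxia over some 10 days, and sorted hypoxic (SH) cells were SN cells returned to 1% oxygen for 2 days. In SN vs UN and SH vs UH, the sorting, the earlier hypoxia and the expansion cannot be told apart.

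Interferons are secreted proteins that warn cells of viruses. Type I and type III interferons act through receptors and kinases on a complex that holds STAT2 and IRF9 and binds the interferon-stimulated response element (ISRE) in the promoters of antiviral genes, whereas interferon-γ acts in part through IRF1. MHC class I molecules display peptides that the proteasome has cut and that the TAP transporter has carried into the endoplasmic reticulum, and interferons raise most members of this route. Hepatocytes carry class I molecules at the cell surface, and tumors often lower them.

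Expression is given as TPM, transcripts per 1000000 after correction for transcript length, and values of 3 libraries follow the order of replicates 1, 2 and 3. All 12 libraries were fitted together with limma, using log2(TPM + 1). A call of higher or lower needed an adjusted p (Benjamini-Hochberg, over all genes tested) under 0.05 together with a fold above 2. Because 1 is added, the fold changes of weakly expressed genes are understated. The sequencing depth behind each TPM is unknown. Mean levels over all 12 libraries ranged from 0.162 TPM for Mx1 to 1786 TPM for B2m, with 30 genes at or above 1 TPM, 17 at or above 10 TPM and 5 (Irf1, Tapbp, B2m, H2-K1 and H2-D1) at or above 100 TPM.

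UN replicate 1 stood apart from its group. Its 14 members above 1.5 times both other UN libraries (40% of 35, against 9.0% of all genes tested) were Irf9, Dhx58, Mx2, Irf7, Zbp1, Oasl2, Usp18, Ifit1, Isg15, Stat2, Xaf1, Bst2, Oas1a and Ifit3. Irf1, Nlrc5 and Psmb9 were under both by more than 1.5 times (8.57%, against 14.8% of all genes). The summed TPM of 12 fibroblast and stellate cell markers was 5161 in that library and 1176 and 1324 in the other UN libraries, and its part in these values was not tested. That sum was 4853 to 7134 in UH, 201 to 212 in SN and 56.7 to 77.9 in SH cells. The markers did not move together in UH vs UN. Of 10 tested, Col1a1, Col3a1 and Col1a2 were called higher and Pdgfra, Pdgfrb and Dcn lower (30% each, against 5.46% and 11.8% of all genes). In SH vs UH, Des was called higher and 6 were called lower (10% and 60%, against 7.65% and 5.35%). In SH replicate 3, 9 of the 35 members were under both other SH libraries by more than 1.5 times, where 13.5% of all genes were. Of 16 leukocyte markers, 13, with Ptprc, Cd3e and Adgre1 among them, were under 1 TPM in every library, and their sum of 5.47 to 10.3 in UN, 22 to 23.3 in UH, 10.1 to 15 in SN and 60.1 to 64.2 in SH cells came mainly from Cd68. Of the defining hepatocyte markers, Apoa1 and Ttr were under 1 TPM in every library and Alb was at 4.23 TPM or less. In bulk RNA, fewer cells of a type and less RNA per cell cannot be told apart. The cultures are described as independent replicas, and p-values measure the spread between them. Whether each SN or SH replica came from its own sort is not stated, so p-values may not include the spread between sorts. Where a result rests on UN replicate 1, its value without that library is given.

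Hypoxia lowered more of these genes than it raised in unsorted cells. In UH vs UN, 11 members were called lower (31.4% of 35, where 11.8% of all genes were called lower) and 1 was called higher (5.46% of all genes). In SH vs SN the calls were balanced, with 5 members called higher (7.47% of all genes) and 5 lower (5% of all genes). In normoxia, 13 members were lower in sorted than in unsorted cells (7.57% of all genes) and 0 were higher with limma (3.2% of all genes; 0 members at an unadjusted p under 0.05). In hypoxia, 4 were higher (7.65% of all genes) and 7 lower (5.35% of all genes) in SH than in UH cells. Without SH replicate 3, 3 members were called lower in SH vs SN and 4 in SH vs UH, and without SN replicate 1, 3 were called lower in SH vs SN. UH vs UN and SN vs UN share the UN libraries, and each other group also enters 2 of these comparisons. The median log2 fold changes of the 35 genes in these comparisons were −0.72, 0.06, −0.86 and −0.38, and those of all genes were −0.19, 0.03, −0.06 and 0.17. With median-of-ratios scaling the median of all genes in UH vs UN became 0. That scaling called 6 members lower and 2 higher (6.45% and 8.29% of all genes). The share of all called genes that were higher went from 31.7% to 56.2%. The same scaling gave 4 higher and 11 lower members in SH vs UH (5.41% and 7.01% of all genes), where that share went from 58.8% to 43.6%. The remaining 11 genes (B2m, Dhx58, Eif2ak2, Ifi44, Irf1, Mx1, Psmb8, Rsad2, Stat2, Tapbp and Xaf1) were called in none of these comparisons. With all 3 UN libraries, UN cells had the highest mean of 20 genes and the lowest of no gene. Without UN replicate 1, UN was no longer highest for Irf9 and Stat2, with log2 fold changes of 0.12 and 0.23 in UH vs UN. It then had the lowest mean of Bst2. The matching shares of all genes were not counted.

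**Figure D1:**
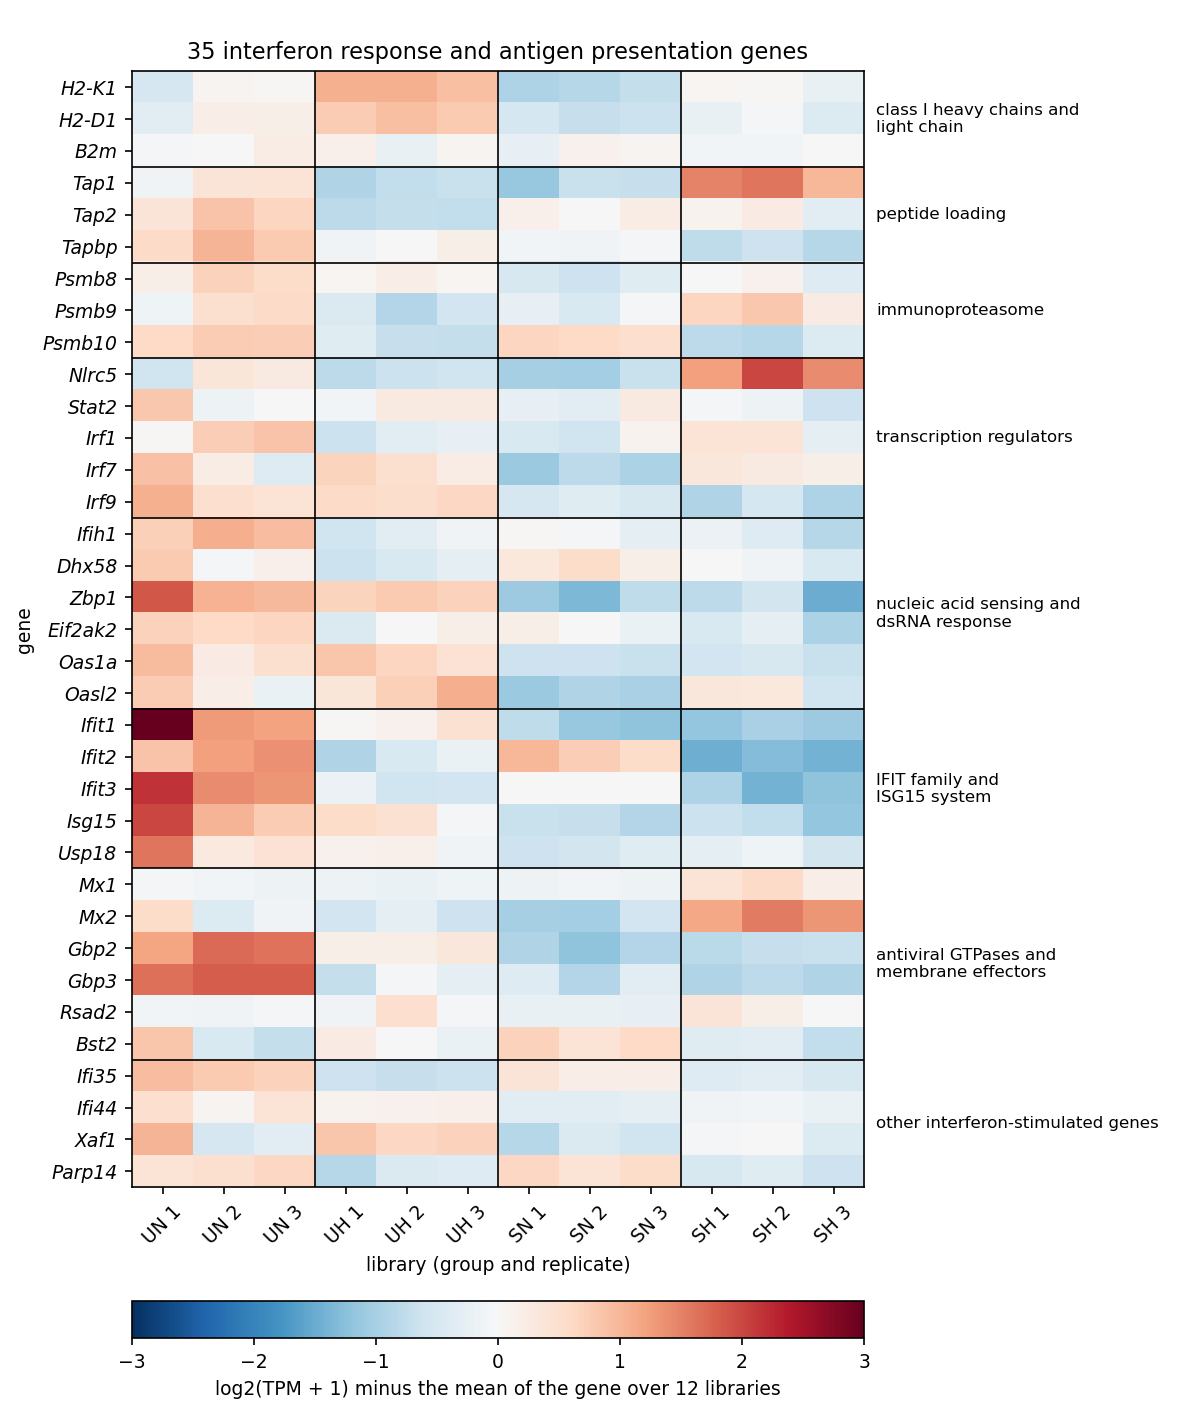
Each row is a gene, each column a library, and the colour is log2(TPM + 1) minus the mean of that gene over the 12 libraries, with horizontal lines between the 8 groups of genes. The IFIT genes, Isg15, Gbp2 and Gbp3 are darkest red in UN cells, the class I heavy chains H2-K1 and H2-D1 in UH cells, and Tap1, Nlrc5 and Mx2 in SH cells.

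Promoter windows from 250 bases before to 50 after the RefSeq start site (GRCm38.p6) were found for 27 of the 35 genes, in 32 windows. The ISRE core, read here as GAAA, any 2 bases and GAAA on either strand, was in 12 of the 32 windows (37.5%) and in 3.44% of all 32851 windows of that length. The interferon-γ-activated site TTCNNNGAA was in 7 of the 32 windows (21.9%; 8.3% of all), and ACGTG, the core of hypoxia response elements, in the windows of Oasl2 and Psmb10 (6.25%; 19.6% of all). A match is a description of letters and not of binding. Of these, 5 windows are shown for members on which the comparisons below turn: Ifit1 (chr19:34640639-34640938, plus strand), Isg15 (chr4:156200769-156201068, minus strand) and Gbp2 (chr3:142620413-142620712, plus strand) are ISRE-bearing genes that were lower in sorted than in unsorted cells in normoxia, B2m (chr2:122147437-122147736, plus strand) is an ISRE-bearing gene that was not called, and Tap1 (chr17:34187306-34187605, plus strand) has no match to any of the 3 motifs in the window and moved in opposite directions in unsorted and sorted cells. Capitals mark the ISRE cores, which read as TTTC, 2 bases and TTTC where they lie on the other strand, and overlapping cores run together.
Ifit1: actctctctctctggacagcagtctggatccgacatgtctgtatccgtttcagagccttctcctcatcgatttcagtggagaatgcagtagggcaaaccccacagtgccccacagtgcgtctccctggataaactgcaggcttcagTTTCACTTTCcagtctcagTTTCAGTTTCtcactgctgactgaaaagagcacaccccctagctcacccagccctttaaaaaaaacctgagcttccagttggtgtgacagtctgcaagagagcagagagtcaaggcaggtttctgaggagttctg
Isg15: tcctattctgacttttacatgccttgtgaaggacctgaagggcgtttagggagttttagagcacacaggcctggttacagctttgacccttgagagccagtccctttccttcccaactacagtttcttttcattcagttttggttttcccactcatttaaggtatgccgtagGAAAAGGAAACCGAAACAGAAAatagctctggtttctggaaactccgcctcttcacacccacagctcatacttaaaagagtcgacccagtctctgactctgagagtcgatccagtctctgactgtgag
Gbp2: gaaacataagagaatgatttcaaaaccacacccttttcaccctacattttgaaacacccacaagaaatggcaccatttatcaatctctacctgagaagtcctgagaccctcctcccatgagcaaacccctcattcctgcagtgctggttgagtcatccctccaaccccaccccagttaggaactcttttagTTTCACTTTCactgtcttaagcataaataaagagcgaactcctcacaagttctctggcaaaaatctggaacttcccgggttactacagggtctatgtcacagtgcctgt
B2m: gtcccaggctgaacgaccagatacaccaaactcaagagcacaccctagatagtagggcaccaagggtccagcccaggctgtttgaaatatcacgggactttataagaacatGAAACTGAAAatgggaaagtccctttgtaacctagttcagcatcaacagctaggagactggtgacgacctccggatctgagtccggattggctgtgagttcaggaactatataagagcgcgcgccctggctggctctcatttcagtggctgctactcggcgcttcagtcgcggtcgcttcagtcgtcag
Tap1: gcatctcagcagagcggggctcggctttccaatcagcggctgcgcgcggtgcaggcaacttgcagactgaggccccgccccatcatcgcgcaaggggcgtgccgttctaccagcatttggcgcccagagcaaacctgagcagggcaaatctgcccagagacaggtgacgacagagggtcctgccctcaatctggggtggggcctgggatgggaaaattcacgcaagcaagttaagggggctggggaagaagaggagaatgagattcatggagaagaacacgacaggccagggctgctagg
Cores began 104 and 85 bases before the start of Ifit1, and 78, 72 and 66 bases before that of Isg15. Those of Gbp2 and B2m began 59 and 139 bases before their starts. The Tap1 window shares 275 bases with that of Psmb9, which is transcribed away from it on the other strand from a start 226 bases away.

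Among the MHC class I genes, the heavy chain H2-K1 rose under hypoxia in unsorted cells, and the light chain B2m was not called in any comparison. H2-K1 (ENSMUSG00000061232, chr17:33996017-34000347, minus strand) encodes a heavy chain that binds peptide, and it was at 179.7, 271 and 260.2 TPM in UN cells, 538, 537 and 476 TPM in UH cells, 134, 141 and 155 TPM in SN cells and 267, 262 and 221 TPM in SH cells. Every UH library lay above every other library. H2-K1 rose in UH vs UN (log2 fold change 1.14, SE 0.15, adjusted p = 6.15e-05, limma) and was lower in SH than in UH cells (log2 fold change −1.05, SE 0.15, adjusted p = 0.000161, limma). The difference between UH and UN cells was 0.96 without UN replicate 1 (adjusted p = 3.99e-05), and that between SH and UH cells was −0.96 without SH replicate 3, both under the fold threshold. In sorted cells the log2 fold change under hypoxia was 0.79 (adjusted p = 0.00113, limma), under 2-fold, and the libraries did not overlap. H2-D1 (ENSMUSG00000073411, chr17:35262730-35267499, plus strand), the other classical heavy chain measured, was at 219, 317 and 312 TPM in UN cells, 469, 518 and 477 TPM in UH cells, 189.5, 171 and 177 TPM in SN cells and 237, 266 and 207 TPM in SH cells. Its pattern was like that of H2-K1, with UH libraries above all others and SN libraries the lowest. The log2 fold change of H2-D1 was 0.8 in UH vs UN (adjusted p = 0.000609, limma), under the fold threshold, and H2-D1 was lower in SH than in UH cells (log2 fold change −1.05, SE 0.14, adjusted p = 0.000123, limma). Without SH replicate 3 the latter value was −0.95, and with median-of-ratios scaling H2-D1 was called higher in UH vs UN at 1.16. B2m (ENSMUSG00000060802, chr2:122147686-122153083, plus strand), the β2-microglobulin light chain that every class I molecule needs, was at 1711, 1787 and 2088 TPM in UN cells, 1959.8, 1515 and 1867 TPM in UH cells, 1496, 1946 and 1879.5 TPM in SN cells and 1684, 1691 and 1801 TPM in SH cells. All 4 groups overlapped, and the log2 fold changes of B2m in the comparisons of groups were between −0.07 and −0.03.

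FVB/N mice carry another H2 haplotype than the C57BL/6 reference genome, so the split of reads among class I genes is uncertain. Summed over all class I heavy chain genes listed, TPM was 590 to 818 in UN, 1327 to 1453 in UH, 400 to 434 in SN and 552 to 695 in SH cells. The UH range lay above the others and the SN range below them, as for H2-K1 alone. Of 18 further class I and antigen processing genes, hypoxia raised 6 (33.3%, against 5.46% of all genes) and lowered 2 (11.1%, against 11.8%) in unsorted cells and raised 1, H2-Q7, in sorted cells (5.56%, against 7.47%). In sorted cells 3 were lower than in unsorted cells in normoxia (16.7%, against 7.57%) and 6 in hypoxia (33.3%, against 5.35%). The change under hypoxia in sorted cells minus that in unsorted cells was called lower for 5 of the 18, H2-Q10, H2-Q2, H2-Q7, H2-T23 and H2-Q6 (27.8%, against 2.18% of all genes), and higher for none. H2-Q10, a secreted class I molecule, was at 0.272, 0.793 and 0.57 TPM in UN cells and 12.6, 12.7 and 12.9 TPM in UH cells and at 0.229, 0.414 and 0.433 TPM in SN cells and 0.916, 1.12 and 0.543 TPM in SH cells (log2 fold change 3.17, SE 0.17, adjusted p = 8.2e-08 in UH vs UN, limma). H2-Q7, a non-classical class I gene, was at 2.54, 6.03 and 5.93 TPM in UN cells and 32.8, 30.3 and 25.5 TPM in UH cells (log2 fold change 2.45, SE 0.24, adjusted p = 9.42e-06, limma). Both were under 7 TPM in every library outside UH. H2-Q2 was also called higher in UH vs UN (2.12). Of the 18, Erap1, which trims peptides, fell most in UH vs UN (log2 fold change −1.31, SE 0.16, adjusted p = 4.67e-05, limma), and Psme2, a subunit of the proteasome activator PA28, also fell (−1.13).

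In the peptide loading complex, Tap1 was the gene whose change under hypoxia differed most between unsorted and sorted cells among the 35. TAP1 and TAP2 form the transporter that carries peptides into the endoplasmic reticulum. Tap1 (ENSMUSG00000037321, chr17:34187553-34197225, plus strand) was at 11.4, 16.6 and 16.8 TPM in UN cells, 6.12, 7.03 and 7.4 TPM in UH cells, 5.04, 7.41 and 7.26 TPM in SN cells and 36.6, 39.8 and 25.8 TPM in SH cells. All SH libraries lay above all others, and UH and SN libraries lay below the UN libraries. Tap1 rose in SH vs SN (log2 fold change 2.21, SE 0.20, adjusted p = 8.7e-06, limma) and was higher in SH than in UH cells (2.14). In UH vs UN it fell (log2 fold change −1.002, SE 0.20, adjusted p = 0.00164, limma), but the value was −0.93, −0.92 and −0.91 without UH replicate 1, UN replicate 2 and UN replicate 3 and −0.68 with median-of-ratios scaling, all under the fold threshold. In SN vs UN it fell (−1.07), and this call was lost without SN replicate 1 (−0.91), UN replicate 2 (−0.99) or UN replicate 3 (−0.98) and with median-of-ratios scaling. The response of sorted cells to hypoxia minus that of unsorted cells, (SH − SN) − (UH − UN), called the difference of responses below, was 3.21 for Tap1 (SE 0.29, adjusted p = 4.29e-05, limma). Tap2 (ENSMUSG00000024339, chr17:34203527-34216321, plus strand) was at 28.3, 39.8 and 34.2 TPM in UN cells, 12.1, 12.6 and 12.5 TPM in UH cells, 24, 21.3 and 25.3 TPM in SN cells and 23.1, 25.7 and 16.7 TPM in SH cells. Its 3 UH libraries lay below all others. Tap2 fell in UH vs UN (log2 fold change −1.38, SE 0.16, adjusted p = 3.23e-05, limma), whereas in SH vs SN its log2 fold change was −0.12 (adjusted p = 0.603, limma) with overlapping libraries. The difference of responses was called for Tap2 (1.26, adjusted p = 0.00305, limma), and with median-of-ratios scaling it was 0.93, under the threshold. Tapbp, which encodes tapasin, the bridge between TAP and the class I molecule, was at 143, 196 and 167 TPM in UN cells, 89.1, 97.2 and 109 TPM in UH cells, 90.6, 88.9 and 92.1 TPM in SN cells and 55.7, 61.8 and 52.2 TPM in SH cells. Tapbp was highest in the UN libraries and lowest in the SH libraries, with log2 fold changes from −0.88 to −0.67 in the 4 comparisons, and it was not called in any of them.

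The 3 inducible catalytic subunits of the immunoproteasome did not move together. Psmb10 (ENSMUSG00000031897, chr8:105935735-105938444, minus strand) was at 65.4, 73.8 and 72.5 TPM in UN cells, 33.4, 26.2 and 25.8 TPM in UH cells, 68.4, 65.7 and 61.2 TPM in SN cells and 24.8, 23.5 and 32.2 TPM in SH cells. Both hypoxic groups lay below both normoxic groups. Psmb10 fell in UH vs UN (log2 fold change −1.29, SE 0.13, adjusted p = 1.29e-05, limma) and in SH vs SN (log2 fold change −1.26, SE 0.13, adjusted p = 2.48e-05, limma), and with median-of-ratios scaling the former was −0.94. Psmb9 (ENSMUSG00000096727, chr17:34181987-34187764, minus strand) was at 7.68, 12.3 and 13.2 TPM in UN cells, 6.11, 4.15 and 5.37 TPM in UH cells, 7.04, 5.99 and 8.26 TPM in SN cells and 14, 15.7 and 10.3 TPM in SH cells. The SH libraries lay above those of UH and SN cells and overlapped with those of UN cells. Psmb9 was higher in SH than in UH cells (log2 fold change 1.2, SE 0.22, adjusted p = 0.00109, limma), and its difference of responses was called (1.75, adjusted p = 0.00274, limma). In UH vs UN the log2 fold change of Psmb9 was −0.94, which became −1.04 and was called without UH replicate 1, and was −1.16 without UN replicate 1 (adjusted p = 0.000723). Psmb8, with the highest mean TPM of these subunits over the 12 libraries though under Psmb10 in every SN library, was at 78.5, 112 and 102 TPM in UN cells, 72.3, 79.3 and 72 TPM in UH cells, 49, 44.3 and 53 TPM in SN cells and 67.7, 75.5 and 52.1 TPM in SH cells. The SN libraries were all below the UN libraries, with a log2 fold change of −0.97 (adjusted p = 0.000521, limma) under the fold threshold. It was −1.03 without SN replicate 3 and −1.11 without UN replicate 1 (adjusted p = 0.000159), both called. Tap1 and Psmb9 overlap at their 5′ ends on opposite strands, and whether reads were counted by strand is not given in the sources used here.

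Each inducible subunit replaces a constitutive partner, so their ratio within a library was also compared. The ratio of Psmb8 to Psmb5 TPM was 0.682 ± 0.174 in UN, 0.774 ± 0.13 in UH, 0.409 ± 0.079 in SN and 1.02 ± 0.346 in SH cells (mean of 3 library ratios ± SD, n = 3). The ratio of Psmb9 to Psmb6 was 0.0366 ± 0.0132, 0.0252 ± 0.00377, 0.0184 ± 0.00328 and 0.0532 ± 0.0132 in the same order (SD, n = 3). The SH libraries lay above the SN libraries in both ratios, and above the UH libraries in the latter. For Psmb10 to Psmb7 the ratios were 0.241 ± 0.016, 0.234 ± 0.0442, 0.253 ± 0.0212 and 0.208 ± 0.0358 (SD, n = 3), and all compared groups overlapped. As ratios of the groups' mean TPM, in the order UN, UH, SN and SH, the values were 0.669, 0.763, 0.403 and 0.979 for Psmb8 to Psmb5 and 0.0355, 0.0253, 0.0183 and 0.0528 for Psmb9 to Psmb6. For Psmb10 to Psmb7 they were 0.24, 0.229, 0.252 and 0.207. The partners also differed between groups in their levels. Mean TPM of Psmb5 was 145 ± 17.9 in UN, 97.7 ± 13.6 in UH, 121 ± 15.6 in SN and 66.5 ± 12.4 in SH cells (SD, n = 3), and that of Psmb6 was 312 ± 40.2, 206 ± 18.7, 387 ± 7.35 and 252 ± 13.4 (SD, n = 3). Psmb7 was at 295 ± 37, 124 ± 27.8, 258 ± 15.1 and 129 ± 10.7 (SD, n = 3). In SH vs SN the log2 fold change of Psmb5 was −0.86 (adjusted p = 0.000918, limma) and that of Psmb8 0.4 (adjusted p = 0.057, limma). Psmb7 was called lower in UH vs UN (−1.25, adjusted p = 4.84e-05, limma). In exact two-sided permutation tests of 3 libraries in each group, the smallest possible p is 0.1. The 3 comparisons without overlap had p = 0.1 and, over the 12 comparisons made, an adjusted p = 0.4 in these exact permutation tests.

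**Figure D2:**
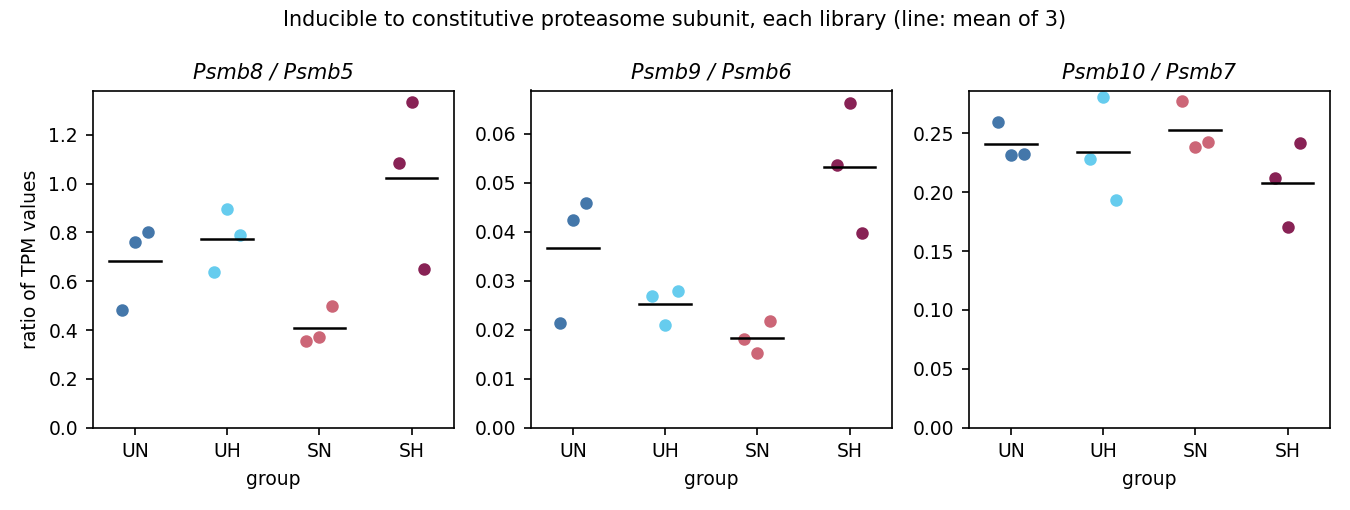
Ratio of the TPM of each inducible proteasome subunit to its constitutive partner (vertical axis, from 0) in the 4 groups, with a point for each library and a line at the mean of 3. SH points lie above SN points for Psmb8 / Psmb5 and Psmb9 / Psmb6, and all groups overlap for Psmb10 / Psmb7.

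Among the transcription regulators, Nlrc5 had the largest rise. NLRC5 is the transactivator of class I genes and of their loading machinery. Nlrc5 (ENSMUSG00000074151, chr8:94434356-94527272, plus strand) was at 0.674, 2.26 and 2.07 TPM in UN cells, 0.472, 0.61 and 0.678 TPM in UH cells, 0.264, 0.24 and 0.605 TPM in SN cells and 4.96, 9.19 and 5.74 TPM in SH cells. Every SH library lay above every library of the other groups. Nlrc5 rose in SH vs SN (log2 fold change 2.45, SE 0.26, adjusted p = 2.71e-05, limma), was higher in SH than in UH cells (2.23), and its difference of responses was 3.14 (SE 0.37, adjusted p = 0.00025, limma). Among the class I members, the log2 fold changes in SH vs SN were 0.79 for H2-K1 (adjusted p = 0.00113, limma), 0.39 for H2-D1 (adjusted p = 0.0427, limma) and −0.03 for B2m (adjusted p = 0.894, limma), all under 2-fold. Of the 18 further class I and antigen processing genes, H2-Q7 alone was called higher in SH vs SN (5.56%, against 7.47% of all genes). The levels of Nlrc5 outside SH cells were under 2.3 TPM, and its SN vs UN log2 fold change was −0.91, which was −1.03 and called without SN replicate 3, and was −1.22 without UN replicate 1 (adjusted p = 0.00128). Irf1 (ENSMUSG00000018899, chr11:53770014-53778374, plus strand), a factor for which interferon-γ and inflammatory signals are well known inducers, was at 123, 201 and 219.8 TPM in UN cells, 76.5, 95.8 and 102 TPM in UH cells, 87.2, 79.6 and 129 TPM in SN cells and 159.7, 159 and 100.01 TPM in SH cells. UN and SH libraries were mostly above UH and SN libraries, with overlap. Irf1 was not called in the 4 comparisons of groups, but its difference of responses was called (1.45, SE 0.36, adjusted p = 0.0156, limma), with a log2 fold change of −0.95 in unsorted and 0.5 in sorted cells. Irf1 was called lower in UH vs UN at −1.03 without UH replicate 3 and −1.21 without UN replicate 1 (adjusted p = 0.00192). In SN vs UN it was called lower at −1.07 without SN replicate 3 and −1.12 without UN replicate 1 (adjusted p = 0.00433).

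Irf7, the amplifier of type I interferon production, was at 7.22, 4.25 and 2.41 TPM in UN cells, 6.15, 5.24 and 4.22 TPM in UH cells, 1.06, 1.59 and 1.32 TPM in SN cells and 4.64, 4.41 and 4.02 TPM in SH cells. The SN libraries were the lowest, and the other groups overlapped. Irf7 fell in SN vs UN (log2 fold change −1.19, SE 0.26, adjusted p = 0.00473, limma), a value that was −0.87 without UN replicate 1 (adjusted p = 0.00721), and rose in SH vs SN (log2 fold change 1.21, SE 0.26, adjusted p = 0.00334, limma). Its difference of responses (0.99) was called without UN replicate 3 (1.3), while it was 0.67 without UN replicate 1 (adjusted p = 0.0925). Irf9, the DNA-binding part of the complex with STAT2, was at 23.4, 15.4 and 14.3 TPM in UN cells, 16.2, 15.6 and 16.9 TPM in UH cells, 7.11, 8.03 and 7.24 TPM in SN cells and 5.21, 7.08 and 5.14 TPM in SH cells. Both sorted groups lay below both unsorted groups. Irf9 was lower in SN vs UN (log2 fold change −1.11, SE 0.18, adjusted p = 0.000588, limma) and in SH vs UH (log2 fold change −1.35, SE 0.18, adjusted p = 0.00011, limma), and the former was −0.9 without UN replicate 1 (adjusted p = 0.000553). With median-of-ratios scaling the SN vs UN call of Irf9 was also lost. The Irf9 gene overlaps Rnf31 on the same strand. Stat2 ranged from 6.07 to 17.9 TPM, with UN replicate 1 highest, and its log2 fold changes were between −0.43 and −0.06.

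Of the genes that sense or act on foreign nucleic acid, 4 of 6 were lower in sorted cells in normoxia (66.7%, against 7.57% of all genes). Zbp1 (ENSMUSG00000027514, chr2:173206612-173218923, minus strand), a sensor of Z-form nucleic acid, was at 10.4, 5.44 and 5.14 TPM in UN cells, 3.96, 4.42 and 4.01 TPM in UH cells, 0.473, 0.222 and 0.843 TPM in SN cells and 0.807, 1.13 and 0.114 TPM in SH cells. All sorted libraries lay below all unsorted libraries. Zbp1 was lower in SN vs UN (log2 fold change −2.36, SE 0.28, adjusted p = 7.6e-05, limma; −2.08 without UN replicate 1 (adjusted p = 0.000112)) and in SH vs UH (log2 fold change −1.66, SE 0.28, adjusted p = 0.000668, limma). Oas1a, a 2′-5′ oligoadenylate synthetase that activates RNase L, was at 2.05, 0.869 and 1.22 TPM in UN cells, 1.82, 1.48 and 1.14 TPM in UH cells, 0.0345, 0.0213 and 0 TPM in SN cells and 0.0557, 0.138 and 0 TPM in SH cells. It was near or at 0 in the sorted libraries. Oas1a was lower in SN vs UN (log2 fold change −1.19, SE 0.17, adjusted p = 0.000242, limma; just past the fold threshold without UN replicate 1, adjusted p = 0.000195) and in SH vs UH (−1.21, adjusted p = 0.000158, limma). Oasl2, a relative of these synthetases, was at 11.6, 7.57 and 5.49 TPM in UN cells, 8.65, 11.3 and 15 TPM in UH cells, 2.46, 2.97 and 2.79 TPM in SN cells and 8.5, 8.22 and 3.91 TPM in SH cells. The SN libraries were the lowest. Oasl2 fell in SN vs UN (log2 fold change −1.25, SE 0.30, adjusted p = 0.00691, limma; −0.997 without UN replicate 1 (adjusted p = 0.0227)) and rose in SH vs SN (log2 fold change 1.01, SE 0.30, adjusted p = 0.0172, limma). The latter was under 2-fold without SH replicate 1 (0.85), SH replicate 2 (0.87) or SN replicate 1 (0.96).

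Ifih1, which encodes the long double-stranded RNA sensor MDA5, was at 6.14, 8.25 and 7.22 TPM in UN cells, 1.87, 2.4 and 2.99 TPM in UH cells, 3.46, 3.13 and 2.59 TPM in SN cells and 2.85, 2.29 and 1.39 TPM in SH cells. The UN libraries were above all others. Ifih1 fell in UH vs UN (log2 fold change −1.27, SE 0.20, adjusted p = 0.000323, limma) and in SN vs UN (log2 fold change −1.01, SE 0.20, adjusted p = 0.00247, limma). With median-of-ratios scaling the former was −0.99, and the latter was −0.93 without SN replicate 3 and −0.92 without UN replicate 2. The SN vs UN call of Ifih1 was also lost with that scaling. Its difference of responses (0.89) was called without SH replicate 3 (1.08) or UH replicate 3 (1.01). Eif2ak2, the double-stranded RNA-dependent kinase PKR that stops translation, was at 28, 26.4 and 27.3 TPM in UN cells, 12.4, 17.2 and 19.5 TPM in UH cells, 19.4, 17.1 and 14.7 TPM in SN cells and 12.1, 13.7 and 8.34 TPM in SH cells. It was highest in the UN libraries, with log2 fold changes of −0.72 in UH vs UN and −0.65 in SN vs UN, and was not called. Dhx58, which encodes LGP2, a helicase that modulates these sensors, ranged from 0.922 to 4.17 TPM and was not called, with −0.76 in UH vs UN.

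The IFIT genes, whose proteins bind viral RNA and restrain its translation, were highest in UN cells. Under hypoxia in unsorted cells, 3 of them fell (11.8% of all genes were called lower). Ifit1 (ENSMUSG00000034459, chr19:34640871-34650009, plus strand) was at 21.8, 4.86 and 4.6 TPM in UN cells, 1.51, 1.67 and 2.36 TPM in UH cells, 0.43, 0.103 and 0.0499 TPM in SN cells and 0.0986, 0.239 and 0.147 TPM in SH cells. UN replicate 1 was the highest of all, and each UN library lay above each UH library, which lay above all sorted libraries. Ifit1 fell in UH vs UN (log2 fold change −1.69, SE 0.42, adjusted p = 0.00622, limma) and in SN vs UN (log2 fold change −2.94, SE 0.42, adjusted p = 0.000272, limma). These values were −1.02 without UN replicate 1 (adjusted p = 0.000534) and −2.28 without UN replicate 1 (adjusted p = 2.49e-06), respectively. In SH vs UH it was called lower (−1.28, adjusted p = 0.0292, limma), but not with any of the 6 compared libraries left out, when values were −1.37 to −1.16. Its difference of responses (1.66) was called without UN replicate 2 (1.97) or UN replicate 3 (2.01), while it was 0.99 without UN replicate 1 (adjusted p = 0.00762), under 2-fold. Ifit3 was at 12.5, 7.01 and 6.55 TPM in UN cells, 1.66, 0.998 and 1.03 TPM in UH cells, 1.99, 1.97 and 2.0 TPM in SN cells and 0.573, 0.13 and 0.296 TPM in SH cells. The UN libraries were highest and the SH libraries lowest. Ifit3 fell in UH vs UN (log2 fold change −2.08, SE 0.22, adjusted p = 1.66e-05, limma), in SH vs SN (log2 fold change −1.18, SE 0.22, adjusted p = 0.00139, limma) and in SN vs UN (log2 fold change −1.65, SE 0.22, adjusted p = 0.000185, limma; −1.38 without UN replicate 1 (adjusted p = 0.000126)). Its difference of responses (0.9) was called without UH replicate 1 (1.04) or UN replicate 3 (1.06), while it was 0.64 without UN replicate 1 (adjusted p = 0.059).

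Ifit2 (ENSMUSG00000045932, chr19:34550694-34576419, plus strand) had overlapping UN and SN libraries, unlike both. It was at 17.7, 23.3 and 25.4 TPM in UN cells, 4.54, 6.45 and 7.95 TPM in UH cells, 19.5, 16.1 and 14 TPM in SN cells and 2.7, 3.18 and 2.88 TPM in SH cells. Both hypoxic groups lay below both normoxic groups. Ifit2 fell in UH vs UN (log2 fold change −1.68, SE 0.20, adjusted p = 3.29e-05, limma) and in SH vs SN (log2 fold change −2.15, SE 0.20, adjusted p = 8.6e-06, limma), while its SN vs UN log2 fold change was −0.4 (adjusted p = 0.147, limma). In SH vs UH it was −0.87, and −1.06 and called without UH replicate 1. Isg15 (ENSMUSG00000035692, chr4:156199424-156200818, minus strand), a ubiquitin-like protein that is attached to others, was at 32.1, 15.5 and 13 TPM in UN cells, 11, 10.3 and 6.86 TPM in UH cells, 4.17, 4.08 and 3.48 TPM in SN cells and 4.24, 3.93 and 2.68 TPM in SH cells. All sorted libraries lay below all unsorted libraries, and UN replicate 1 was the highest. Isg15 was lower in SN vs UN (log2 fold change −2.005, SE 0.29, adjusted p = 0.000293, limma; −1.63 without UN replicate 1 (adjusted p = 0.000175)) and in SH vs UH (log2 fold change −1.16, SE 0.29, adjusted p = 0.00732, limma). In UH vs UN its log2 fold change was −0.94 (adjusted p = 0.0193, limma), and it was called without UH replicate 1 (−1.06), UH replicate 2 (−1.01), UN replicate 2 (−1.07) or UN replicate 3 (−1.19), while it was −0.57 without UN replicate 1 (adjusted p = 0.0494). Usp18, the protease that removes ISG15 and dampens the interferon receptor, ranged from 1.1 to 4.22 TPM in UN cells and from 0.111 to 0.880 TPM in the other groups, and was lower in SN vs UN (−1.3, adjusted p = 0.00393, limma; −0.88 without UN replicate 1 (adjusted p = 0.000873)). The mean log2(TPM + 1) of these 5 genes was 3.36 ± 0.545 in UN, 1.93 ± 0.017 in UH, 1.7 ± 0.0863 in SN and 1.04 ± 0.102 in SH cells (SD, n = 3). Ifit3 shares sequence with Ifit3b, so the division of reads between them is uncertain.

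**Figure D3:**
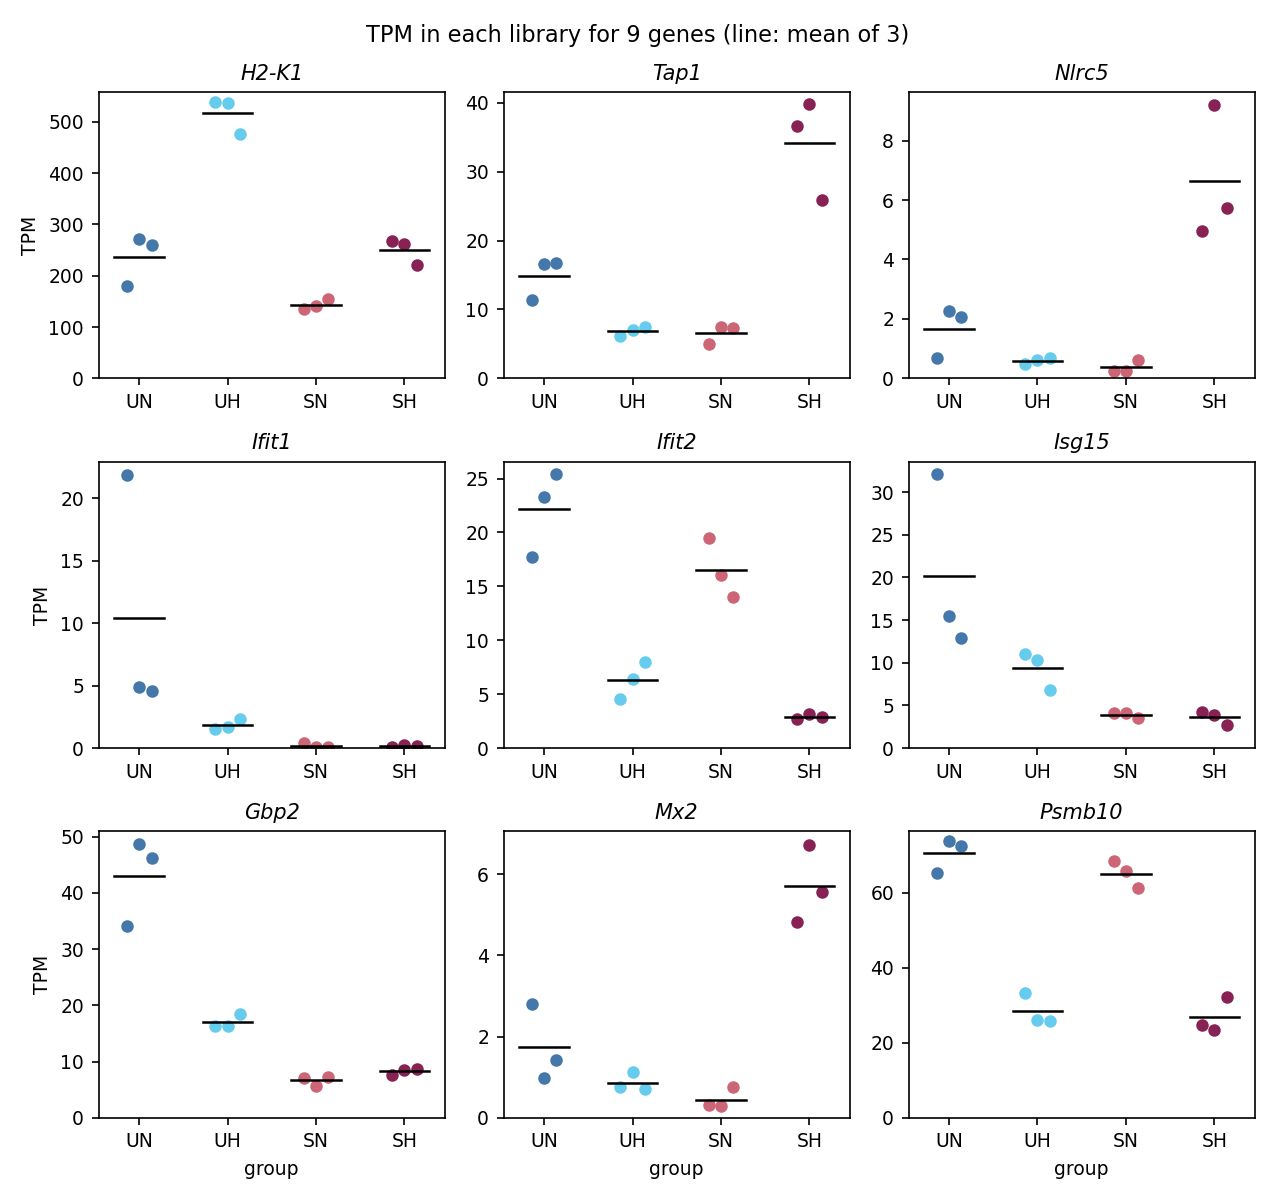
TPM (vertical axes, from 0) of 9 genes in the 4 groups, with a point for each library and a line at the mean of 3. H2-K1 is highest in UH cells, Tap1, Nlrc5 and Mx2 in SH cells, Ifit1, Isg15 and Gbp2 in UN cells, and Ifit2 and Psmb10 are lower in both hypoxic groups than in both normoxic groups.

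Among antiviral GTPases and membrane effectors, the guanylate-binding protein genes were highest in UN cells and Mx2 was highest in SH cells. Gbp2 (ENSMUSG00000028270, chr3:142620602-142638008, plus strand), a GTPase that attacks vacuoles of intracellular pathogens, was at 34.1, 48.8 and 46.1 TPM in UN cells, 16.3, 16.4 and 18.4 TPM in UH cells, 7.16, 5.62 and 7.32 TPM in SN cells and 7.7, 8.5 and 8.67 TPM in SH cells. Each UN library lay above each UH library, and each UH library above all sorted libraries. Gbp2 fell in UH vs UN (log2 fold change −1.27, SE 0.15, adjusted p = 3.22e-05, limma) and in SN vs UN (log2 fold change −2.51, SE 0.15, adjusted p = 3.24e-07, limma). With median-of-ratios scaling the former was −0.93, under the threshold. Gbp3 (ENSMUSG00000028268, chr3:142560026-142573209, plus strand), a close paralog, was at 19.7, 22 and 22 TPM in UN cells, 3.0, 5.28 and 4.33 TPM in UH cells, 4.05, 2.57 and 4.18 TPM in SN cells and 2.53, 2.78 and 2.51 TPM in SH cells. Every library outside UN was under 6 TPM. Gbp3 fell in UH vs UN (log2 fold change −2.12, SE 0.19, adjusted p = 4.51e-06, limma) and in SN vs UN (log2 fold change −2.29, SE 0.19, adjusted p = 4.45e-06, limma). The differences of responses were called for Gbp2 (1.55, adjusted p = 0.000577, limma) and Gbp3 (1.79, adjusted p = 0.00111, limma), whose log2 fold changes in SH vs SN were 0.28 and −0.33.

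Mx2 (ENSMUSG00000023341, chr16:97535308-97560900, plus strand), a dynamin-like antiviral GTPase, was at 2.8, 0.97 and 1.43 TPM in UN cells, 0.749, 1.13 and 0.702 TPM in UH cells, 0.31, 0.286 and 0.75 TPM in SN cells and 4.83, 6.73 and 5.56 TPM in SH cells. Every SH library lay above every other library. Mx2 rose in SH vs SN (log2 fold change 2.22, SE 0.23, adjusted p = 2.38e-05, limma), was higher in SH than in UH cells (1.85, adjusted p = 7.95e-05, limma), and had a difference of responses of 2.72 (SE 0.33, adjusted p = 0.000287, limma). In SN vs UN its log2 fold change was −0.88, and it was called lower without SN replicate 3 (−1.02) or UN replicate 2 (−1.08), while it was −0.61 without UN replicate 1 (adjusted p = 0.0295). Mx1, its paralog, was at 0 to 0.103 TPM outside SH cells and at 0.316 to 0.711 TPM in SH cells, with a log2 fold change of 0.53 in SH vs SN that was 2.06 and called with a pseudocount of 0.1. Bst2, which encodes tetherin and holds budding virions at the cell surface, was at 115, 46.4 and 38.6 TPM in UN cells, 75.6, 64.6 and 55.1 TPM in UH cells, 103, 84.6 and 97.6 TPM in SN cells and 48.9, 49.8 and 37.8 TPM in SH cells. The SH libraries lay below the SN libraries, and the UN libraries spread over the range of the other groups. Bst2 fell in SH vs SN (log2 fold change −1.06, SE 0.31, adjusted p = 0.0181, limma), and was −0.93 without SH replicate 3 and −0.99 without SN replicate 1. In SN vs UN its log2 fold change of 0.67 was 1.15 without UN replicate 1 (adjusted p = 0.000317), which made Bst2 the member called higher there, and its difference of responses of −1.18 was −1.65 without UN replicate 1 (adjusted p = 0.000401). Rsad2, which encodes viperin, ranged from 0.0461 to 0.735 TPM and was not called.

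Of the remaining 4 interferon-stimulated genes, 2 were lower in UH than in UN cells (50%, against 11.8% of all genes). Ifi35, which encodes a partner of NMI, was at 48.9, 44.2 and 41 TPM in UN cells, 16, 15.2 and 15.6 TPM in UH cells, 33.1, 29.1 and 29 TPM in SN cells and 18.9, 19.6 and 17.6 TPM in SH cells. The hypoxic libraries were below the normoxic ones in both kinds of cell. Ifi35 fell in UH vs UN (log2 fold change −1.46, SE 0.10, adjusted p = 6.38e-07, limma) and its log2 fold change in SH vs SN was −0.67 (adjusted p = 0.000267, limma), under 2-fold. Parp14, an ADP-ribosyltransferase, was at 7.69, 8.12 and 9.1 TPM in UN cells, 2.63, 3.87 and 4.02 TPM in UH cells, 9.01, 7.64 and 8.52 TPM in SN cells and 3.7, 4.09 and 3.25 TPM in SH cells. Both hypoxic groups lay below both normoxic groups, which overlapped. Parp14 fell in UH vs UN (log2 fold change −1.06, SE 0.16, adjusted p = 0.000187, limma) and in SH vs SN (log2 fold change −1.01, SE 0.16, adjusted p = 0.000371, limma), near the fold threshold in each. The former was −0.91 without UH replicate 1, −0.999 without UN replicate 3 and −0.76 with median-of-ratios scaling, and the call was lost in each. The latter was −0.94, −0.96 and −0.99 without SH replicate 3, SN replicate 1 and SN replicate 3, and its call was also lost with that scaling. Xaf1, which encodes a partner of the apoptosis inhibitor XIAP, was at 26.9 to 31.5 TPM in UH cells and at 36, 11.8 and 13.4 TPM in UN cells, and its log2 fold change of 0.66 in UH vs UN was 1.14 without UN replicate 1 (adjusted p = 0.000219). Ifi44 ranged from 0 to 0.810 TPM and was not called.

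Hypoxia gave different results in sorted and unsorted cells for 8 members, all with a more positive response in sorted cells, unlike the 5 further class I genes above. The difference of responses was called higher for Tap1, Nlrc5, Mx2, Gbp3, Psmb9, Gbp2, Irf1 and Tap2 (22.9% of 35, where 8.08% of all genes were called higher) and lower for 0 (2.18% of all genes; 1 member, Bst2, at an unadjusted p under 0.05, limma). The median difference was 0.6 over the 35 genes and 0.25 over all genes. With median-of-ratios scaling 7 members were called higher and 1 lower (4.77% and 4.14% of all genes), and the median of all genes was 0.02. These 8 genes included Tap1, Psmb9 and Tap2, which lie close together in the MHC region of chromosome 17. The log2 fold changes of Tap1, Nlrc5, Mx2, Psmb9, Irf1 and Gbp2 were positive in SH vs SN and negative in UH vs UN. For Tap2 and Gbp3 both were negative. In contrast, Ifit2, Ifit3, Parp14 and Psmb10 were called lower in both kinds of cell. With median-of-ratios scaling, both calls of Parp14 and that of Psmb10 in UH vs UN were lost.

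**Figure D4:**
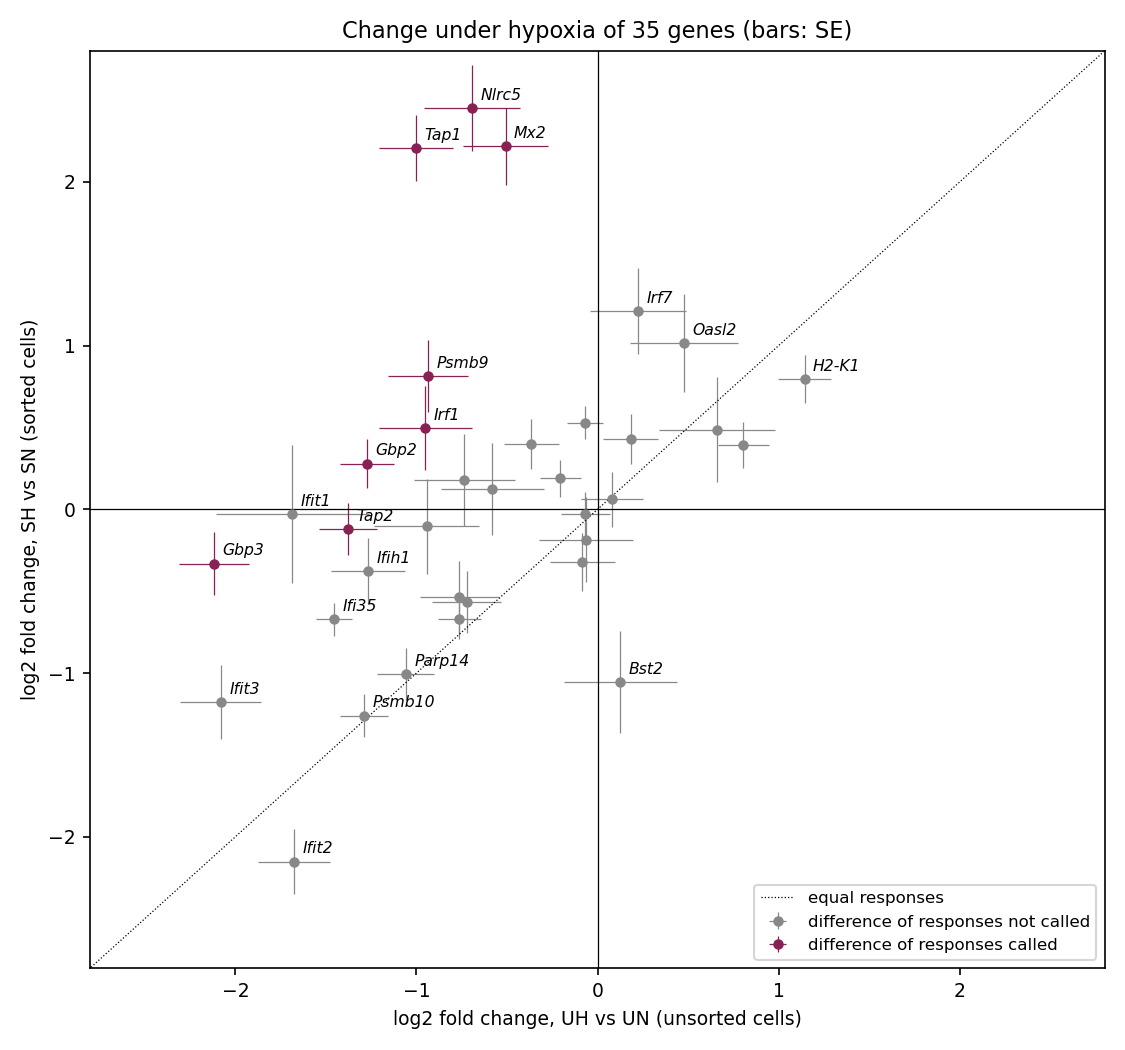
Log2 fold change of each of the 35 genes under hypoxia in unsorted cells (horizontal axis) and in sorted cells (vertical axis), with bars of 1 SE and a dotted line of equal responses. The 8 genes whose difference of responses was called (dark red) lie above the line, while Ifit2, Psmb10 and Parp14 lie at or near it in the lower left.

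In normoxia, 13 of the 35 genes were lower in sorted than in unsorted cells. Called or not, log2 fold changes were negative in this comparison for 32 members (91.4%) and for 55.7% of all genes, and Ifit1, Gbp2, Zbp1, Gbp3 and Isg15 fell most, with values from −2.94 to −2.005. Without UN replicate 1, 12 members were called lower and 1 higher, where 9.06% and 3.93% of all genes were called, and 9 of the 13 calls made with all libraries were kept. The calls lost were those of Irf7, Irf9, Oasl2 and Usp18, and those gained were Irf1, Nlrc5 and Psmb8 as lower and Bst2 as higher. In UH vs UN, leaving out that library gave 13 lower and 1 higher members (13.9% and 5.88% of all genes), and 11 of the 12 calls were kept. The call lost was that of H2-K1, and the member then called higher was Xaf1.

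**Figure D5:**
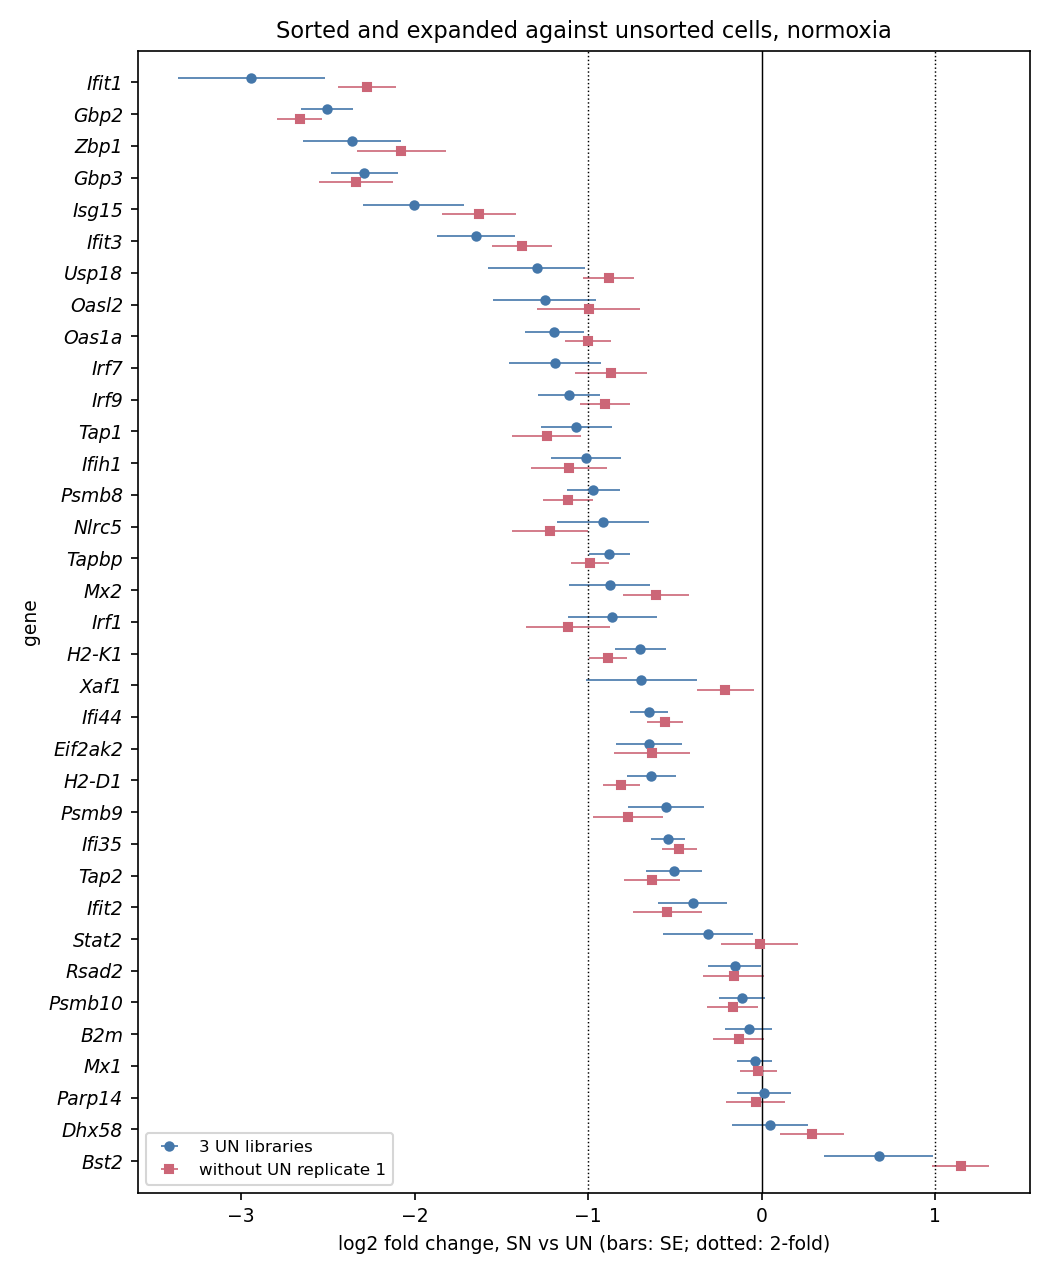
Log2 fold change of each of the 35 genes in SN vs UN (horizontal axis) with bars of 1 SE, with all 3 UN libraries (circles) and without UN replicate 1 (squares), and dotted lines at 2-fold. Ifit1, Gbp2, Zbp1, Gbp3 and Isg15 lie furthest to the left with either set of libraries, and Bst2 lies furthest to the right.

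Genes upstream of the members were counted from lists of their own. Of 21 interferon genes, which gave 22 rows, 12 rows were at 0 in all 12 libraries, and the highest value in any library was 0.497 TPM, for Ifnz. Summed TPM of these ligands was 0 to 0.896 in a library. Receptor genes were present, and of 9 receptors and kinases, 2 were called higher in SN vs UN (22.2%, against 3.2% of all genes). In UH vs UN, SH vs SN and SH vs UH, limma called 0, with 7, 5 and 4 at an unadjusted p under 0.05. Ifngr1, the ligand-binding chain of the interferon-γ receptor, was at 93.4, 80.5 and 87.6 TPM in UN cells and 235, 231 and 242 TPM in SN cells (log2 fold change 1.43, SE 0.11, adjusted p = 2.16e-06, limma), without overlap. Il10rb, a chain shared by the type III interferon and interleukin-10 receptors, was also called higher (1.2), and its difference of responses was called lower (−1.03). Of 6 other STAT and IRF factors tested, 2 were called higher in SH vs UH (33.3%, against 7.65% of all genes). These were Irf5 and Irf2 (1.34 and 1.56). Irf5 was called lower in UH vs UN, and the differences of responses of Irf5 and Irf2 were called higher. The other calls in this list are not reported here.

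Of 15 further genes of nucleic acid sensing, 1 was called higher and 2 lower in UH relative to UN cells. These shares of 6.67% and 13.3% were near the 5.46% and 11.8% of all genes. For SN vs UN the counts were 1 higher (6.67%, against 3.2% of all genes) and 3 lower (20%, against 7.57%), and for SH vs UH they were 1 and 1 (6.67% each, against 7.65% and 5.35%). In SH vs SN limma called 0, with 5 at an unadjusted p under 0.05. Mb21d1, which encodes the cytosolic DNA sensor cGAS, was at 5.01, 8.8 and 10.4 TPM in UN cells and 0.421, 0.602 and 1.0 TPM in UH cells and at 0.138, 0.202 and 0.107 TPM in SN cells and 0.10, 0.0507 and 0.0804 TPM in SH cells. It fell in UH vs UN (log2 fold change −2.4, SE 0.21, adjusted p = 3.68e-06, limma) and in SN vs UN (log2 fold change −2.93, SE 0.21, adjusted p = 1.36e-06, limma), and all sorted libraries were under 0.21 TPM. Ddx58, which encodes the RNA sensor RIG-I, was lower in SN vs UN (−2.01), as was Tmem173, which encodes STING (−1.49). Tmem173 was also lower in SH vs UH (−2.38).

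Other interferon-stimulated genes outside the 35 were counted in a list of 62 rows, of which 59 were tested. Hypoxia raised 3 (5.08%, against 5.46% of all genes) and lowered 14 (23.7%, against 11.8%) in unsorted cells. It raised 8 (13.6%, against 7.47%) and lowered 6 (10.2%, against 5%) in sorted cells. Sorted cells had 3 higher (5.08%, against 3.2%) and 10 lower genes (16.9%, against 7.57%) than unsorted cells in normoxia, and 8 higher and 8 lower in hypoxia (13.6% each, against 7.65% and 5.35%). Cxcl10, a chemokine that attracts T cells, was at 23.8, 43.1 and 41.8 TPM in UN cells and 2.94, 3.1 and 3.24 TPM in UH cells and at 15.1, 16.6 and 19.3 TPM in SN cells and 2.32, 3.6 and 5.79 TPM in SH cells. It fell in both hypoxia comparisons (log2 fold change −3.14, SE 0.26, adjusted p = 2.65e-06 in UH vs UN, limma; −1.93 in SH vs SN). Isg20, an RNA exonuclease, was at 40.2, 33.1 and 35.6 TPM in UN cells and 333, 341 and 314 TPM in UH cells and at 31.1, 40.1 and 36.9 TPM in SN cells and 289, 293 and 257 TPM in SH cells. It rose in both (log2 fold change 3.15, SE 0.11, adjusted p = 7.32e-09 in UH vs UN, limma; 2.93 in SH vs SN). Ifi27, a mitochondrial protein gene, was at 133, 109 and 107 TPM in UN cells and 0.355, 0.595 and 0.853 TPM in SN cells and fell in SN vs UN (log2 fold change −6.2, SE 0.21, adjusted p = 2.81e-09, limma). Of 9 class II presentation genes tested, 1 was called lower in UH vs UN, 1 lower in SN vs UN and 1 higher in SH vs UH. Each is 11.1%, against 11.8%, 7.57% and 7.65% of all genes. The difference of responses was called higher for 2, Cd74 and H2-DMa (22.2%, against 8.08%). In SH vs SN limma called 0, with 6 at an unadjusted p under 0.05, all higher. Cd74, the class II invariant chain, fell in UH vs UN (−1.35) and was higher in SH than in UH cells (2.13).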

How the data were processed

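RNA-seq was performed on 12 libraries of BN1-Tie2-EGFP cells, 3 in each of 4 groups taken from the labels. The authors prepared libraries with a stranded mRNA kit, processed reads with nf-core/rnaseq 3.12.0 (build mm10, per the submitters' processing notes) and deposited a table of TPM from Salmon, which sums to 1000000 in each library. The annotation and the counting by strand are not given in the sources used here. Depth is unknown, so no counting interval or floor is given.

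TPM were analysed as log2(TPM + 1) for 18909 genes with a mean of at least 0.1 TPM. R 4.3.3 and limma 3.58.1 fitted a mean for each group, and variances were moderated by empirical Bayes along a mean trend. Calls required a Benjamini-Hochberg adjusted p under 0.05 over all genes and a fold above 2. The fit was tested on simulated data. TPM ratios were compared by exact permutation. Coordinates were taken from GENCODE M21 (GRCm38), and promoters from RefSeq (GRCm38.p6). Python was version 3.11.15, with pandas 2.3.3, numpy 2.4.6, matplotlib 3.10.9 and scipy 1.17.1.

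The 35 members, the other lists and the tests were chosen with earlier results of these data known, so counts over them are descriptions. The named genes are all 35 members, with every library's value for those called in a comparison (at most the 3 of largest change in each role and comparison) and for the member of highest mean in each role. Of other lists, called genes among the 3 of largest change are named, apart from 1 that is not reported here. Libraries of the same number were not taken as pairs, because 1 of 18 residual correlations between same-numbered libraries was over 0.1. The alternatives were other pseudocounts, filters, scalings and moderation, a replicate block, fits of 2 groups alone and leaving out each library.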

Additional observations from a re-analysis of the deposited data

Results flagged for a closer look

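The response to hypoxia differed between sorted and unsorted cells for 8 members by the interaction contrast (SH − SN) − (UH − UN), tested with limma over all genes. The log2 differences were 3.21 for Tap1 (adjusted p = 4.29e-05), 3.14 for Nlrc5 (adjusted p = 0.00025), 2.72 for Mx2 (adjusted p = 0.000287), 1.79 for Gbp3 (adjusted p = 0.00111), 1.75 for Psmb9 (adjusted p = 0.00274), 1.55 for Gbp2 (adjusted p = 0.000577), 1.45 for Irf1 (adjusted p = 0.0156) and 1.26 for Tap2 (adjusted p = 0.00305). For Tap1, Nlrc5 and Mx2, all 3 SH libraries lay above all 9 others. For Tap2, Gbp2 and Gbp3, which fell in UH vs UN, the log2 fold changes in SH vs SN were −0.12, 0.28 and −0.33. Cd68, a macrophage marker, was called higher in SH vs SN and also in UH vs UN, SN vs UN and SH vs UH. Its difference of responses was not called, and its part in these values was not tested. Of 16 leukocyte markers, 13, with the macrophage marker Adgre1 among them, were under 1 TPM in every library.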

How the results depend on the processing

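Of the 54 calls of a member in a comparison, 34 were kept in every alternative tried and 20 were lost in at least 1, with no reversal, while 29 of 121 uncalled pairs were called in at least 1. The counts of members called moved by more than 1.5 times in these cases, and the cause was not tested. Median-of-ratios scaling gave 2 higher and 6 lower members in UH vs UN (8.29% and 6.45% of all genes). It gave 11 lower in SH vs UH (7.01% of all genes) and 1 lower in the difference of responses (4.14% of all genes). A pseudocount of 0.1 gave 8 higher members in SH vs SN, where the share of all genes called higher went from 7.47% to 15.1%. The replicate block gave 1 lower member in the difference of responses (Bst2) and changed no other call, and replicate numbers did not pair the libraries (residual correlations −0.116 to 0.141). The ISRE core was in 28.1% of members' windows when only the 150 bases before the start were searched. With each library left out in turn, the number of members called lower was 10 to 13 in UH vs UN, 3 to 5 in SH vs SN, 12 to 16 in SN vs UN, 4 to 7 in SH vs UH and 0 to 1 in the difference of responses, and the number called higher was 1 to 1, 4 to 5, 0 to 1, 4 to 4 and 8 to 11 in the same order. Depth limits, to an unknown extent, the 10 members under 1 TPM in every library of at least 1 group (Ifi44, Ifit1, Ifit3, Mx1, Mx2, Nlrc5, Oas1a, Rsad2, Usp18 and Zbp1).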
